A study of Mus musculus with 12 samples.

Results

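The interaction of Prmt7 knockdown and interferon gamma (IFN-γ) is the difference between the IFN-γ response of siPRMT7 cells and that of siLuc cells, taken gene by gene. It was computed from 12 libraries in 4 groups as siPRMT7 cells with IFN-γ minus siPRMT7 cells without it, less the same difference in siLuc cells. Genes with a mean of at least 4 on the authors' regularized log (rlog) scale, a log2 scale, were kept, which left 14407 genes of the 55536 in the table. The cells were B16.F10, a mouse melanoma line of C57BL/6 background. Cells labelled PRMT7 KD had received a small interfering RNA against Prmt7 (siPRMT7) for 72 h, and cells labelled PRMT7 WT one against luciferase (siLuc), a firefly gene that mouse cells lack. The 4 groups were siPRMT7 cells with IFN-γ for the last 24 h, siPRMT7 cells without it, siLuc cells with IFN-γ and siLuc cells without it, each with 3 libraries. All groups thus share transfection with a small interfering RNA and the single cell line, and a dose of IFN-γ is not printed because its unit differs between the labels. The labels do not say that libraries of a group came from separate cultures, so p-values measure the spread between libraries, which may be technical.

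IFN-γ binds a receptor carrying the kinases JAK1 and JAK2, which phosphorylate STAT transcription factors; these bind gamma-activated sites and induce IRF1 and further interferon-stimulated genes. IRF9 is the DNA-binding subunit of ISGF3, the complex that type I interferon activates and that binds interferon-stimulated response elements. In melanoma cells IFN-γ raises antigen presentation and slows growth. PRMT7 is a protein arginine methyltransferase that forms monomethylarginine. A log2 interaction of 0 means that the fold changes of knockdown and IFN-γ multiply, and a value below 0 that the response of siPRMT7 cells lay below that of siLuc cells.

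The Prmt7 value was 6.36, 6.30 and 6.08 in siPRMT7 libraries with IFN-γ and 6.16, 6.32 and 6.41 in siPRMT7 libraries without it, against 10.26, 10.24 and 10.26 in siLuc libraries with IFN-γ and 10.16, 10.34 and 10.24 in siLuc libraries without it. The knockdown difference was -4.0 with IFN-γ and -3.95 without it, and the interaction of Prmt7 was -0.06 ± 0.11 (SE, n = 3 libraries a group; limma adjusted p = 0.75), a difference smaller than its error. Library totals ran from 19.0 to 25.9 M reads in siPRMT7 cells with IFN-γ, 26.0 to 31.0 M in siPRMT7 cells without it, 22 to 28.2 M in siLuc cells with IFN-γ and 24.2 to 25.5 M in siLuc cells without it. All 7 melanocytic markers were measured, with a mean of 16.32 for Pmel and 17.11 for Tyrp1. Of 8 leukocyte markers, 2 passed the filter (Cd68 and Csf1r), while Cd3e, Adgre1 and Itgax were at 0 in every library. Among 20 genes most induced in siLuc cells, replicate 3 of untreated siPRMT7 cells was the highest of its group in 19, with a median excess of 0.258% of the treated level; without that library the interaction was called in 3896 genes, and 356 genes were damped induced and 95 amplified induced.

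Of the genes tested, 30.6% (4415) had an interaction past an adjusted p of 0.05, with 14.1% (2034) higher and 16.5% (2381) lower in siPRMT7 cells. Most were small: the median size of a called interaction was 0.37, and 3052 were under 0.5. An interaction of at least 1 was called in 342 genes, of which 279 were lower and 63 higher. The simple comparisons that make up the interaction each called more genes. These were 56.6% for the IFN-γ response of siPRMT7 cells, 60.6% for that of siLuc cells, 74.7% for the knockdown with IFN-γ and 75.2% for the knockdown without it. Median centring of the libraries raised the interaction calls to 4845, with 2852 higher and 1993 lower, so the split of small interactions between directions depends on the scaling; it moved the median of all genes by 0.04.

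Genes were separated by their 4 group means into classes. A responder had a response of at least 1 (a 2-fold change) in at least 1 of the 2 cell states, and 1188 genes (8.25%) were responders. A response was called reversed where the cell states moved in opposite directions by at least 0.25 each, and otherwise additive where the interaction was under 0.5, damped where the response of siPRMT7 cells was the smaller one, and amplified where it was the larger one. By this rule 429 responders were additive, 394 damped, 359 amplified and 6 reversed. The interaction defines these classes, so calls within them are a description: 936 responders (78.8%) had a called interaction, beside 3479 of the 13219 other genes (26.3%). The values at the thresholds were 3.9985 for Gca and 4.0009 for Cda (mean), 0.99993 for Parp4 and 1.0003 for Rgs14 (response), and 0.49899 for Abca8b and 0.50299 for Mthfd1 (interaction).

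Direction and class went together. Of 723 responders that went up in both cell states, 538 had the larger response in siLuc cells and 185 in siPRMT7 cells, and the median response was 1.42 in siPRMT7 cells and 1.70 in siLuc cells. Of 443 responders that went down in both, 351 had the larger response in siPRMT7 cells and 92 in siLuc cells, with a median of -1.31 in siPRMT7 cells and -0.78 in siLuc cells. The classes were 357 damped induced, 37 damped lowered, 96 amplified induced, 263 amplified lowered, 281 additive induced and 148 additive lowered genes. Among 124 genes selected for a response of at least 4 in siLuc cells, a choice that favours larger siLuc responses, the median response was 4.69 in siPRMT7 cells and 5.53 in siLuc cells, and 105 had the smaller response in siPRMT7 cells. Among 91 genes selected for a response of at least 4 in siPRMT7 cells, the median was 5.37 in siPRMT7 cells and 6.08 in siLuc cells, and 60 had the smaller response in siPRMT7 cells.

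**Figure D1:**
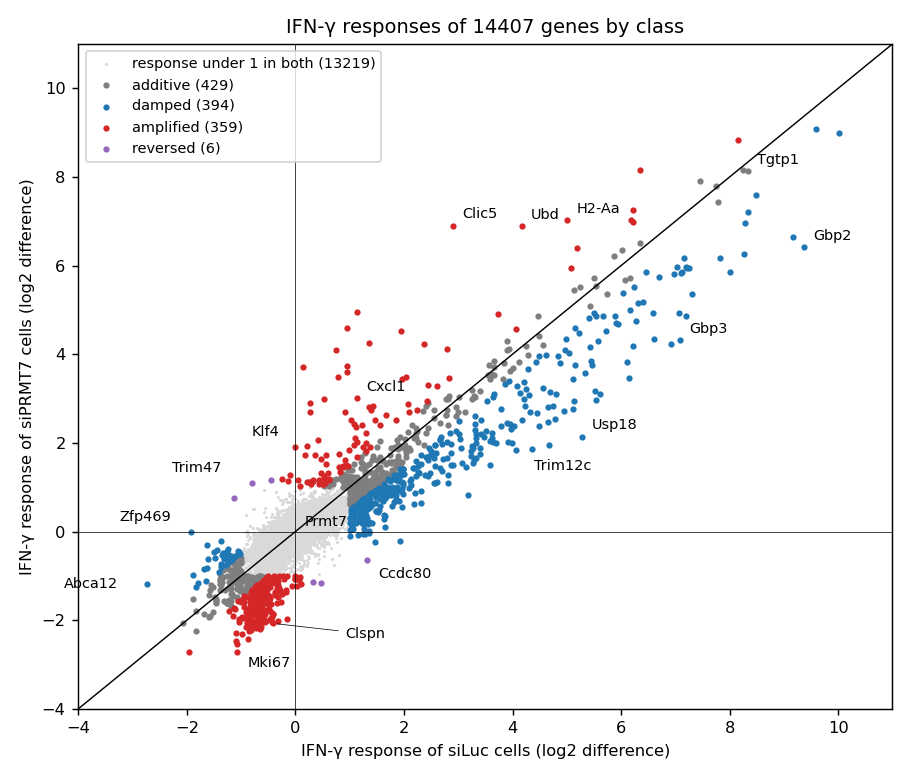
IFN-γ response of siPRMT7 cells (vertical, log2 difference of group means) against that of siLuc cells (horizontal, log2 difference) for 14407 genes, with points coloured by class; the line marks equal responses. Most strongly induced genes lie below the line, and a dense group of amplified genes with lowered values lies under it, mostly at responses of siLuc cells between 0 and -1.

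The damped induced genes were the largest class with unequal responses. Their median response was 1.28 in siPRMT7 cells and 2.19 in siLuc cells, and the interaction was called in 354 of 357. The 5 named for the largest interaction were Usp18, Gbp2, Gbp3, Trim12c and Irgm2, all interferon-stimulated genes. Of the class, 82 genes stood in the lists of interferon signalling, GTPases, antiviral effectors, nucleic acid sensing and MHC presentation. The same lists held 13 of 281 additive induced and 7 of 96 amplified induced genes. None of the damped induced genes stood in the lists of DNA replication and mitosis. All lists were chosen with earlier results of these data known.

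The promoter windows of Isg15 and Gbp2 are shown because both are damped and hold the letters of an interferon-stimulated response element, GAAANNGAA, on either strand. RefSeq windows on GRCm38.p6 were available for 10021 of the 14407 genes. The match was in 29.6% of 257 damped induced windows, 11.5% of 61 amplified induced windows and 20.5% of 195 additive induced windows, against 7.05% of all windows. The letters of a gamma-activated site, TTCNNNGAA, were in 14.8% of damped induced, 3.28% of amplified induced and 10.8% of additive induced windows, against 6.84% of all. These windows run from 250 bases before the start to 50 after it, and the letters are a description, not a site shown to be bound. Printed below are the 250 bases before the start, 5′ to 3′ on the gene's strand, with the matches in capitals. Those of Isg15 (chr4:156200819-156201068, minus strand) begin 78, 72 and 66 bases before the start and overlap each other, and that of Gbp2 (chr3:142620413-142620662, plus strand) lies 58 bases before it and reads on the opposite strand.
Isg15: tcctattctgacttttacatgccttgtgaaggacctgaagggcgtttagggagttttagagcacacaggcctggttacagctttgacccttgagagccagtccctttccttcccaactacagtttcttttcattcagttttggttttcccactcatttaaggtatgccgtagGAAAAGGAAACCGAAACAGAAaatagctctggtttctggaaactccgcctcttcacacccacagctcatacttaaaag
Gbp2: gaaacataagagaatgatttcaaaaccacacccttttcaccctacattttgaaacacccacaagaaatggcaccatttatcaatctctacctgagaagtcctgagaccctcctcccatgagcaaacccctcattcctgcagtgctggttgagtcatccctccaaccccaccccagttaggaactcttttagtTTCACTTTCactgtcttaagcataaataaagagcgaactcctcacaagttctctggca

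Usp18 encodes the protease that removes ISG15 from proteins and restrains type I interferon receptor signalling; it lies at chr6:121245906-121270917 on mm10. Its value was 12.70, 12.64 and 12.59 in siPRMT7 libraries with IFN-γ and 10.53, 10.35 and 10.63 in those without it, against 12.75, 12.91 and 12.74 in siLuc libraries with IFN-γ and 7.39, 7.65 and 7.50 in those without it. The libraries with IFN-γ were close in both cell states, and all untreated siPRMT7 libraries were above all untreated siLuc libraries. The response was 4.41-fold in siPRMT7 cells and 39-fold in siLuc cells, an interaction of -3.14 ± 0.09 (SE, n = 3; limma adjusted p = 3.77e-16).

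Gbp2, a guanylate-binding protein that acts on pathogen membranes, lies at chr3:142620602-142638008. Its value was 15.76, 15.72 and 15.68 in siPRMT7 libraries with IFN-γ and 9.20, 9.16 and 9.56 in those without it, against 16.60, 16.61 and 16.58 in siLuc libraries with IFN-γ and 7.28, 7.07 and 7.32 in those without it. Here the siPRMT7 libraries began higher and ended lower, with no overlap on either side. The response was 6.42 in siPRMT7 cells and 9.37 in siLuc cells (interaction -2.95 ± 0.10; limma adjusted p = 5.15e-15). For its paralog Gbp3 the libraries with IFN-γ read 13.93, 13.93 and 13.89 in siPRMT7 cells and 13.93, 13.93 and 13.92 in siLuc cells, which overlap. Without IFN-γ they read 9.55, 9.58 and 9.66 in siPRMT7 cells and 6.81, 6.85 and 6.85 in siLuc cells. The interaction was -2.77 ± 0.05 (limma adjusted p = 4.4e-19). The guanylate-binding proteins, the Irgm and Tgtp genes, the H2 genes and the Trim12 and Trim30 genes each belong to families of near-identical copies, so their reads can be split between members.

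Trim12c, of a tripartite-motif family related to antiviral restriction factors, differed on both sides in the same direction. Its value was 13.31, 13.20 and 13.32 in siPRMT7 libraries with IFN-γ and 11.28, 11.26 and 11.42 in those without it, against 12.32, 12.29 and 12.30 in siLuc libraries with IFN-γ and 7.46, 7.68 and 7.76 in those without it. Every siPRMT7 library was above every siLuc library of the same treatment, yet the response was smaller, 1.96 in siPRMT7 cells and 4.67 in siLuc cells (interaction -2.71 ± 0.08; limma adjusted p = 6.62e-16). Irgm2, an immunity-related GTPase that regulates its family on host membranes, had responses of 4.22 in siPRMT7 cells and 6.92 in siLuc cells. Its knockdown difference was 0.39 with IFN-γ and 3.09 without it.

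**Figure D2:**
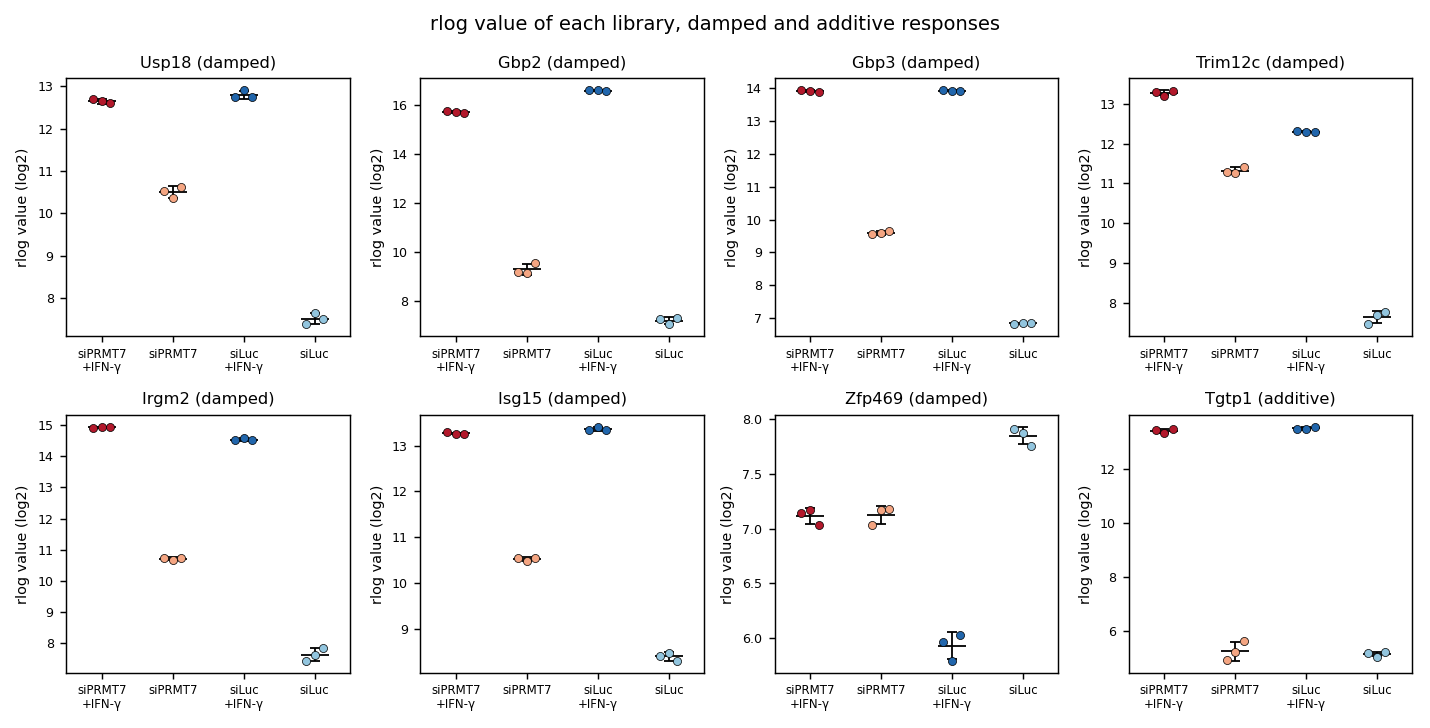
rlog value (vertical, log2) of each of the 12 libraries for 7 damped genes and for Tgtp1, with the 4 groups on the horizontal axis; points are libraries and bars are means ± SD (n = 3). In Usp18, Gbp3 and Isg15 the groups with IFN-γ lie close together while untreated siPRMT7 libraries lie above untreated siLuc libraries; Zfp469 has values of 5.79 to 6.03 in siLuc cells with IFN-γ, below the other 3 groups.

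By the rule of the class, a smaller response of siPRMT7 cells goes with higher untreated values, lower treated values or both. With a difference counted from 0.5, 145 damped induced genes differed between the cell states without IFN-γ alone, 94 with IFN-γ alone, 79 in both conditions and 39 in neither. All 145 genes of the first kind were higher in untreated siPRMT7 cells, with a median knockdown difference of 0.08 with IFN-γ and 1.10 without it. All 94 of the second kind were lower in siPRMT7 cells with IFN-γ, with medians of -0.92 with IFN-γ and 0.00 without it. Of the 79 that differed in both, 47 were higher in siPRMT7 cells in both conditions, 17 were higher without and lower with IFN-γ, and 15 were lower in both. The untreated values of both cell states were under 6 in 81 genes of the class, and the part of such low values in this split was not tested. In the authors' deposited table all 357 had the smaller fold change in siPRMT7 cells. For differences on a linear scale, 198 of the 357 remained damped, 136 became additive and 23 amplified.

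Among genes that differed with IFN-γ alone, Sema3g, Tnfrsf21, Serpina3g and Pacsin1 had the largest interactions and were chosen after their values were seen. Sema3g, a secreted semaphorin, read 8.88, 8.95 and 8.81 in siPRMT7 libraries with IFN-γ, against 10.63, 10.62 and 10.60 in siLuc libraries with IFN-γ, with no overlap. Its interaction was -2.17 ± 0.11 (limma adjusted p = 1.42e-12). Tnfrsf21, a death receptor, had responses of 1.55 in siPRMT7 cells and 3.27 in siLuc cells, and Serpina3g, a serpin that inhibits cathepsins, responses of 3.10 in siPRMT7 cells and 4.80 in siLuc cells. Pacsin1, a membrane-bending adaptor, had responses of 3.44 in siPRMT7 cells and 5.11 in siLuc cells. The knockdown differences of these 3 genes without IFN-γ were -0.04 for Tnfrsf21, -0.15 for Serpina3g and 0.42 for Pacsin1.

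**Figure D3:**
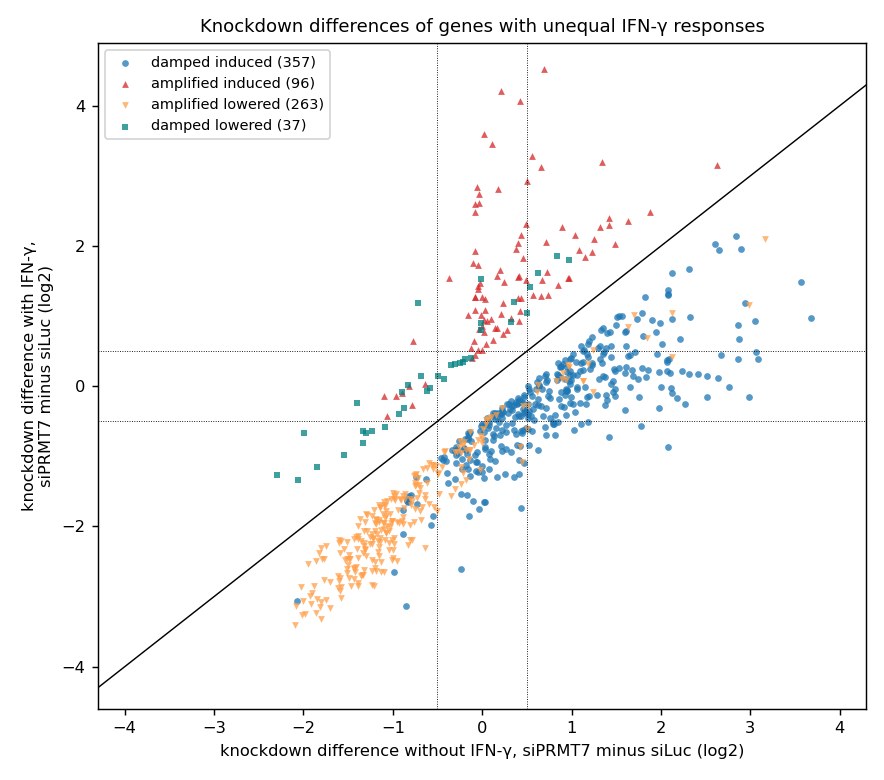
Knockdown difference with IFN-γ (vertical, log2, siPRMT7 minus siLuc) against that without IFN-γ (horizontal, same unit) for the genes of 4 classes; the solid line marks an interaction of 0 and dotted lines mark differences of 0.5. Of 357 damped induced genes, 294 lie to the right of 0, with higher untreated values in siPRMT7 cells, and 63 to the left. With a difference counted from 0.5, 60 of 96 amplified induced genes differ with IFN-γ alone. By the same count, 201 of 263 amplified lowered genes are lower in siPRMT7 cells on both sides.

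The signalling chain itself was affected unevenly. Of 20 genes for interferon receptors and JAK-STAT signalling, 3 were called higher and 11 lower (70%, against 30.6% of all genes). Their median interaction was -0.24 beside 0.00 over all genes tested. Irf9, the ISGF3 subunit, read 11.43, 11.49 and 11.44 in siPRMT7 libraries with IFN-γ and 10.39, 10.40 and 10.41 in those without it, against 11.19, 11.09 and 11.17 in siLuc libraries with IFN-γ and 9.10, 9.24 and 9.15 in those without it. The siPRMT7 libraries were the higher ones in both conditions, and the gap was wider without IFN-γ. The response was 2.08-fold in siPRMT7 cells and 3.96-fold in siLuc cells (interaction -0.93 ± 0.06; limma adjusted p = 1.19e-10). Ifngr2, the signalling chain of the IFN-γ receptor, had the largest positive interaction of this list, 0.67 (limma adjusted p = 2.2e-09), with responses of 0.07 in siPRMT7 cells and -0.60 in siLuc cells.

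Negative regulators had no common direction. Of 15 genes, 3 were called higher and 4 lower (46.7%, against 30.6% of all genes), and the median was -0.02. Beside Usp18, the smallest p was that of Pias2, which encodes a SUMO ligase of the family that inhibits STAT factors. Its interaction was 0.43 ± 0.07 (limma adjusted p = 7.91e-05), with responses of 0.13 in siPRMT7 cells and -0.30 in siLuc cells.

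Genes of cell-autonomous defence had the lowest medians of all lists. Among 20 interferon-inducible GTPases, which attack the membranes around intracellular pathogens, 14 were called lower and 1 higher (75%, against 30.6% of all genes). Their median response was 5.86 in siPRMT7 cells and 7.0 in siLuc cells, and the median knockdown difference was -0.02 with IFN-γ and 1.46 without it. The median interaction of the list was -1.66, -1.47 without replicate 3 of untreated siPRMT7 cells and -2.58 in the authors' deposited table. Irgm1, a regulator of that family, read 15.12, 15.11 and 15.12 in siPRMT7 libraries with IFN-γ and 12.35, 12.29 and 12.42 in those without it, against 15.27, 15.31 and 15.28 in siLuc libraries with IFN-γ and 10.10, 10.23 and 10.19 in those without it. Its untreated groups stood far apart and its treated groups were close but did not overlap (interaction -2.35 ± 0.06; limma adjusted p = 1.55e-17). The exception among the GTPases was Gvin1, a very large GTPase, with responses of 2.42 in siPRMT7 cells and 1.07 in siLuc cells (interaction 1.35; limma adjusted p = 6.86e-07).

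Antiviral effectors followed the same order. Of 35 measured, 31 were called lower and 2 higher (94.3%, against 30.6% of all genes), and 30 were damped induced. The median response was 2.53 in siPRMT7 cells and 3.96 in siLuc cells, with a median knockdown difference of 0.12 with IFN-γ and 1.46 without it. Isg15, the ubiquitin-like modifier, read 13.29, 13.25 and 13.25 in siPRMT7 libraries with IFN-γ and 10.56, 10.49 and 10.55 in those without it, against 13.33, 13.41 and 13.35 in siLuc libraries with IFN-γ and 8.42, 8.49 and 8.31 in those without it. The treated values differed by -0.10 between the cell states and the untreated ones by 2.13, for an interaction of -2.22 ± 0.06 (limma adjusted p = 1.14e-16). Parp14, a mono-ADP-ribosyltransferase, had responses of 4.20 in siPRMT7 cells and 6.21 in siLuc cells.

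Sensors of nucleic acids gave 13 lower calls and none higher among 17 genes (76.5%, against 30.6% of all genes), with a median interaction of -0.90. Their median knockdown difference was -0.13 with IFN-γ and 0.81 without it. Ddx58 encodes RIG-I, a receptor for viral RNA; its response was 2.12-fold in siPRMT7 cells and 7.0-fold in siLuc cells (interaction -1.72 ± 0.07; limma adjusted p = 1.93e-14). It read 12.82, 12.75 and 12.75 in siPRMT7 libraries with IFN-γ and 11.70, 11.67 and 11.68 in those without it, against 12.41, 12.48 and 12.39 in siLuc libraries with IFN-γ and 9.48, 9.68 and 9.69 in those without it. The untreated siPRMT7 libraries lay nearer to the treated libraries than to the untreated siLuc libraries. Ifi203, of the family of proteins that detect DNA, had a knockdown difference of -0.56 with IFN-γ and 1.78 without it (interaction -2.34 ± 0.09; limma adjusted p = 2.09e-14).

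MHC class I presentation, which displays peptides to CD8+ T cells, was damped in most of its genes. Of 22 genes, 17 were called lower and 1 higher (81.8%, against 30.6% of all genes). The median response was 3.26 in siPRMT7 cells and 4.21 in siLuc cells. The median knockdown difference was -0.13 with IFN-γ and 0.72 without it. The median interaction was -0.91, and -1.43 in the authors' deposited table. H2-T23, which encodes the nonclassical molecule Qa-1, read 12.63, 12.61 and 12.59 in siPRMT7 libraries with IFN-γ and 7.32, 7.25 and 7.17 in those without it, against 12.91, 12.96 and 13.00 in siLuc libraries with IFN-γ and 5.67, 5.57 and 5.69 in those without it. Its siPRMT7 libraries began higher and ended lower without overlap (interaction -1.95 ± 0.07; limma adjusted p = 1.1e-14). Tapbp, the tapasin chaperone of peptide loading, had an interaction of -1.63 ± 0.05 (limma adjusted p = 5.56e-16), and 24.9% of its exon bases are shared with Gm19412 on the opposite strand. The gene called higher was H2-Q4, with responses of 4.13 in siPRMT7 cells and 2.79 in siLuc cells (interaction 1.34, limma adjusted p = 2.39e-07). Its untreated values were low, 4.80 to 5.07 in siPRMT7 libraries and 4.13 to 4.22 in siLuc libraries. With untreated values under 6 in both cell states, 22 of 65 amplified induced genes had the opposite sign in the authors' deposited table.

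Among 13 genes for checkpoint ligands and immune evasion, 6 were called lower and 2 higher (61.5%, against 30.6% of all genes). The median was -0.21, and -0.08 over all 18 in the table without the filter on the mean. Lgals9, a galectin that binds TIM-3, had responses of 0.58 in siPRMT7 cells and 1.55 in siLuc cells (interaction -0.97 ± 0.07; limma adjusted p = 1.15e-09). Lgals3, another galectin, read 12.42, 12.46 and 12.38 in siPRMT7 libraries with IFN-γ and 12.07, 12.10 and 12.16 in those without it, against 10.42, 10.21 and 10.20 in siLuc libraries with IFN-γ and 9.33, 9.17 and 9.31 in those without it. Every siPRMT7 library was above every siLuc library, and its interaction was -0.70 ± 0.08 (limma adjusted p = 2.64e-07).

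Cell death genes gave 12 lower calls and 1 higher among 18 (72.2%, against 30.6% of all genes), with a median of -0.27. Mlkl, the executor of necroptosis, had responses of 1.33 in siPRMT7 cells and 2.27 in siLuc cells (interaction -0.95 ± 0.05; limma adjusted p = 1.53e-12).

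Additive induced genes kept about the same log2 response in both cell states. The class had a median response of 1.29 in siPRMT7 cells and 1.41 in siLuc cells, and an interaction was still called in 115 of its 281 genes. The 3 with the largest responses were Tgtp1, Gbp10 and Gbp9, all interferon-inducible GTPases. Tgtp1 read 13.41, 13.31 and 13.45 in siPRMT7 libraries with IFN-γ and 4.92, 5.22 and 5.62 in those without it, against 13.47, 13.47 and 13.55 in siLuc libraries with IFN-γ and 5.21, 5.06 and 5.21 in those without it. The untreated groups overlapped, and the interaction of -0.19 ± 0.15 did not pass the test (limma adjusted p = 0.354). The Gbp10 interaction was 0.06 ± 0.16 (limma adjusted p = 0.831), but 0.28 without replicate 3 of untreated siPRMT7 cells (limma adjusted p = 0.0171), and that of Gbp9 was 0.16 ± 0.11 (limma adjusted p = 0.288).

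The authors' deposited table gives a difference of responses, siPRMT7 minus siLuc, of -1.75 for Tgtp1, -1.96 for Gbp10 and -3.30 for Gbp9. In the 90 additive induced genes whose untreated values were under 6 in both cell states, the median difference in the authors' deposited table was -1.14. In the other 191 it was -0.21.

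Amplified induced genes had a median response of 2.29 in siPRMT7 cells and 0.98 in siLuc cells. Of the 96, 60 differed between the cell states with IFN-γ alone, 27 in both conditions, 7 without IFN-γ alone and 2 in neither. The median knockdown difference of the class was 1.48 with IFN-γ and 0.19 without it. The 5 named were Clic5, Ubd, H2-Aa, Klf4 and Cxcl1, and the lists with the most members in the class were chemokines and cytokines (7), NF-κB subunits and targets (5) and MHC class II presentation (4).

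The promoter windows of Cxcl1 and Cxcl2 are shown because these neighbouring chemokine genes are both amplified on the rlog scale and hold the letters of an NF-κB site. The letters searched were GGANTTTCC on either strand. They were in 11.5% of 61 amplified induced windows, 3.89% of damped induced and 3.59% of additive induced windows, against 1.31% of all. Among named genes, the amplified induced Clic5, Ubd, H2-Aa, Klf4, Nfkbie and Hspb1 held no match in their windows. The damped Isg15, the additive Tgtp1 and the amplified lowered Birc5 held a match. The match lies 70 bases before the start in Cxcl1 (chr5:90890995-90891244, plus strand) and 96 bases before it in Cxcl2 (chr5:90903649-90903898, plus strand).
Cxcl1: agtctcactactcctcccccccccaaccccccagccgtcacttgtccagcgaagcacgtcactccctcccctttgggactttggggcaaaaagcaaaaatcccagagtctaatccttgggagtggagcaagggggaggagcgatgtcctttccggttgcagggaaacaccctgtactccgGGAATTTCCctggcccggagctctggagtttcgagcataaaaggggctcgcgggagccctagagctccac
Cxcl2: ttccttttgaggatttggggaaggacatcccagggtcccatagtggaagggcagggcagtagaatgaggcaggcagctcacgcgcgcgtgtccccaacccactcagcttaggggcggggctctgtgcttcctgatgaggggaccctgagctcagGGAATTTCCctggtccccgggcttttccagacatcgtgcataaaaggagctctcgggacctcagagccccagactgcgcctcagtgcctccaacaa

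Clic5, which encodes a chloride intracellular channel protein tied to actin-based structures, lies at chr17:44188584-44280172 and had the largest interaction of all genes tested. Its value was 11.56, 11.50 and 11.51 in siPRMT7 libraries with IFN-γ and 4.67, 4.55 and 4.64 in those without it, against 7.19, 7.45 and 7.30 in siLuc libraries with IFN-γ and 4.49, 4.36 and 4.38 in those without it. The treated siPRMT7 libraries stood far above the other 9, and the untreated groups were close. The response was 120-fold in siPRMT7 cells and 7.49-fold in siLuc cells (interaction 4.0 ± 0.12; limma adjusted p = 5.56e-16). The authors' deposited table gives 8.38 in siPRMT7 cells and 6.62 in siLuc cells, a difference of 1.77.

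Klf4, a transcription factor of differentiation and stress responses, responded in a single cell state. It read 7.72, 7.84 and 7.75 in siPRMT7 libraries with IFN-γ and 5.87, 6.00 and 5.72 in those without it, against 6.36, 6.26 and 6.05 in siLuc libraries with IFN-γ and 6.19, 6.20 and 6.30 in those without it. The siLuc groups overlapped, while the treated siPRMT7 libraries were above all others (interaction 1.92 ± 0.14; limma adjusted p = 6.68e-10). The authors' deposited table gives a difference of 2.32.

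Chemokines and cytokines gave 8 higher calls and 2 lower among 14 (71.4%, against 30.6% of all genes). Their median interaction was 0.39 beside 0.00 over all genes. The median was 0.04 in the authors' deposited table and 0.72 over the 10 members with a mean of at least 6 on the rlog scale. Cxcl1, a neutrophil-attracting chemokine, read 10.75, 10.68 and 10.68 in siPRMT7 libraries with IFN-γ and 7.50, 7.75 and 7.85 in those without it, against 7.42, 7.63 and 7.46 in siLuc libraries with IFN-γ and 6.24, 6.47 and 6.38 in those without it. Untreated siPRMT7 and treated siLuc libraries overlapped, and the combination was highest in every library (interaction 1.86 ± 0.12; limma adjusted p = 1.63e-10). Its relative Cxcl2 read 6.75, 6.66 and 6.10 in siPRMT7 libraries with IFN-γ, against 3.43, 3.74 and 3.57 in siLuc libraries with IFN-γ. The Cxcl2 interaction was 2.43 ± 0.19 (limma adjusted p = 2.75e-09), but its untreated values of 3.28 to 3.87 are low, and the authors' deposited table gives 0.42. The T cell attractants Cxcl9, Cxcl10 and Cxcl11 were chosen after their values were seen. On the rlog scale Cxcl9 and Cxcl11 were amplified, with interactions of 1.03 and 1.17. Cxcl10 was additive, with responses of 2.99 in siPRMT7 cells and 2.81 in siLuc cells.

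NF-κB subunits and targets moved in one direction. Of 16 genes, 14 were called higher and none lower, against 14.1% of all genes called higher, and the median interaction was 0.52. The median response was 0.82 in siPRMT7 cells and 0.10 in siLuc cells. Nfkbie, an inhibitor of NF-κB that NF-κB itself induces, read 10.59, 10.60 and 10.60 in siPRMT7 libraries with IFN-γ and 8.85, 8.93 and 8.82 in those without it, against 8.87, 8.84 and 8.61 in siLuc libraries with IFN-γ and 8.41, 8.42 and 8.40 in those without it. Treated siPRMT7 libraries were above the rest, and untreated siPRMT7 libraries overlapped treated siLuc libraries (interaction 1.37 ± 0.09; limma adjusted p = 7.11e-11). Nfkbia and Tnfaip3, both inhibitors in the same feedback, had interactions of 0.93 and 1.57, and the subunits Relb, Nfkb2 and Rel had 0.92, 0.63 and 0.45. The 2 members that did not pass were Birc3 and Tnfaip2, with interactions of 0.00 and 0.06.

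Ubd, which encodes the ubiquitin-like modifier FAT10 and is induced by TNF and IFN-γ together, read 12.16, 12.17 and 12.21 in siPRMT7 libraries with IFN-γ and 5.28, 5.23 and 5.37 in those without it, against 8.94, 9.01 and 8.74 in siLuc libraries with IFN-γ and 4.66, 4.66 and 4.87 in those without it. All siPRMT7 libraries were above the siLuc libraries of the same treatment (interaction 2.72 ± 0.12; limma adjusted p = 1.36e-13). The authors' deposited table gives responses of 7.74 in siPRMT7 cells and 7.22 in siLuc cells, a difference of 0.52.

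**Figure D4:**
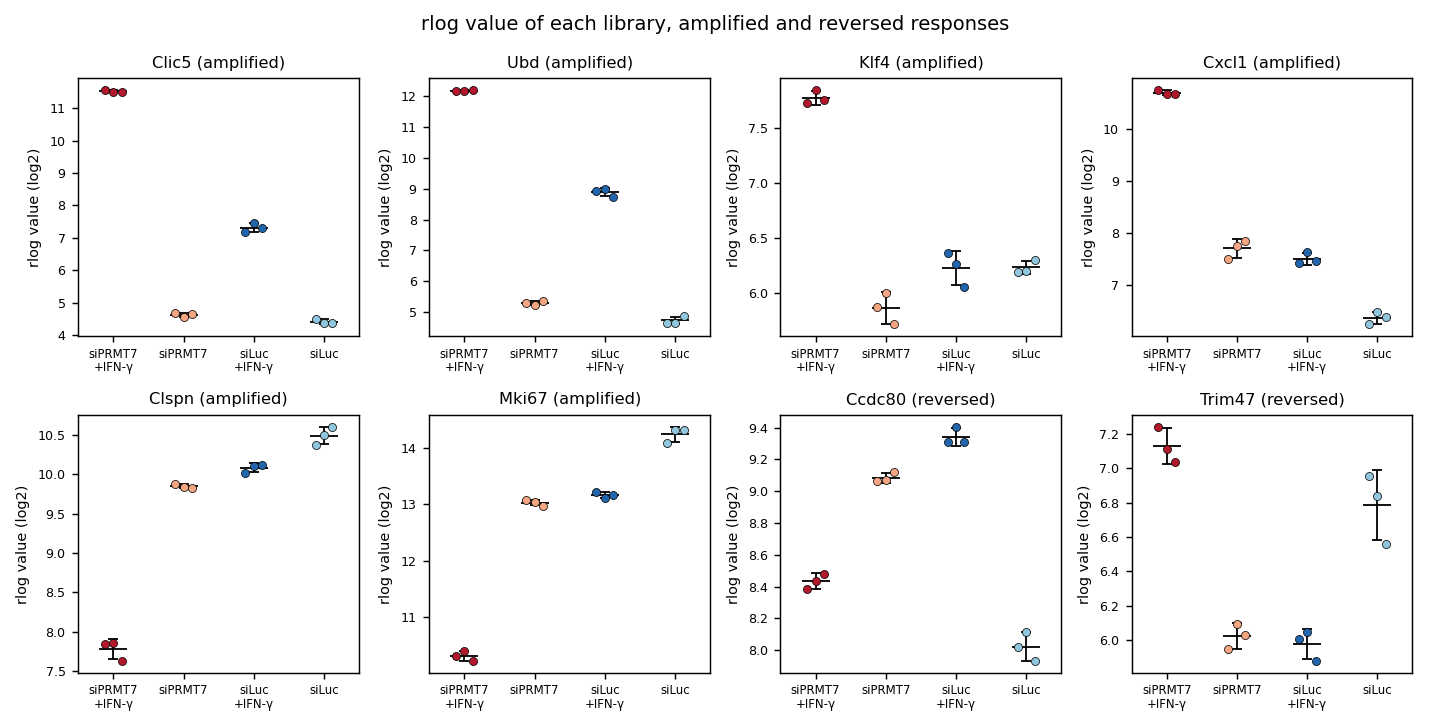
rlog value (vertical, log2) of each library for 6 amplified and 2 reversed genes, with the 4 groups on the horizontal axis; points are libraries and bars are means ± SD (n = 3). Treated siPRMT7 libraries are the highest of the 4 groups in Clic5, Ubd, Klf4 and Cxcl1 and the lowest in Clspn and Mki67, and in Ccdc80 and Trim47 the 2 cell states respond in opposite directions.

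MHC class II presentation, which displays peptides to CD4+ T cells, did not move as a group. Of 8 genes, 4 were called higher and 3 lower (87.5%, against 30.6% of all genes), and the median was 0.41. H2-Aa, an alpha chain, read 11.46, 11.46 and 11.48 in siPRMT7 libraries with IFN-γ and 4.32, 4.46 and 4.57 in those without it, against 9.52, 9.61 and 9.49 in siLuc libraries with IFN-γ and 4.53, 4.54 and 4.51 in those without it. The treated groups were apart and the untreated ones overlapped. The interaction was 2.01 ± 0.11 (limma adjusted p = 6.18e-12) on the rlog scale, but the authors' deposited table gives responses of 10.11 in siPRMT7 cells and 11.10 in siLuc cells, a difference of -0.99. H2-Ab1, the matching beta chain, likewise had 1.22 ± 0.11 (limma adjusted p = 1.48e-08) on the rlog scale and -1.71 in the authors' deposited table, and the cause of these changes of sign was not tested. The treated level itself was higher in siPRMT7 cells on the rlog scale, by 1.93 for H2-Aa and by 1.25 for H2-Ab1. The median of the list was -1.10 in the authors' deposited table.

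The same limit touches the class as a whole. In 65 of the 96 amplified induced genes the untreated values were under 6 in both cell states, and 22 of these had the opposite sign in the authors' deposited table. Of the 31 other genes, 1 had the opposite sign. By the authors' deposited fold changes and the same rule, 59 of the 96 were amplified, 19 additive, 17 damped and 1 reversed.

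Amplified lowered genes had a median response of -1.52 in siPRMT7 cells and -0.65 in siLuc cells. The interaction was called in 262 of the 263 genes. Of the class, 208 differed between the cell states in both conditions, and 201 of these were lower in siPRMT7 cells in both, with a median knockdown difference of -1.93 with IFN-γ and -1.05 without it over the class. The 5 named genes were Clspn, Mki67, Fancd2, Nuf2 and E2f8, all genes of dividing cells. Of the class, 53 genes stood in the lists of DNA replication and mitosis, beside 3 of 148 additive lowered and 0 of 37 damped lowered genes. The median rlog value of the class was 9.26, and 260 of the 263 were amplified lowered in the authors' deposited table too. Both are log2 scales. For differences on a linear scale, 68 of the 263 remained amplified, 126 became additive and 69 damped. Fewer dividing cells and less RNA of these genes per cell cannot be told apart in bulk RNA.

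The promoter windows of Mki67 and Mcm5 are shown because they hold letters typical of cell cycle promoters, the cell cycle homology region (TTTGAA) and the E2F site (TTTNGCGC), searched on either strand. TTTGAA was in 38.2% of 199 amplified lowered windows and 14.4% of damped induced windows, against 11.6% of all. TTTNGCGC was in 10.1% of amplified lowered windows, against 2.47% of all. The matches lie 116 and 98 bases before the start in Mki67 (chr7:135716380-135716629, minus strand) and 153 and 149 bases before it, overlapping on opposite strands, in Mcm5 (chr8:75109259-75109508, plus strand).
Mki67: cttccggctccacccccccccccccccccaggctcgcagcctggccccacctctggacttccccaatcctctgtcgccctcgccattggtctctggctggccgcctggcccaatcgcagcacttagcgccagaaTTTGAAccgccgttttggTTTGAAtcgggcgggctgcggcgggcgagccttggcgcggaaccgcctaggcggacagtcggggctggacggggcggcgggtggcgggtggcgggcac
Mcm5: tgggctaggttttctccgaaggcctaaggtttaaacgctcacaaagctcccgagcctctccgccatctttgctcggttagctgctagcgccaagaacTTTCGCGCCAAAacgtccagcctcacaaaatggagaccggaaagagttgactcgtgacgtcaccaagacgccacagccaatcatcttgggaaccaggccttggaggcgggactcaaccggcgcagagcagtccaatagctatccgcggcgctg

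Mki67, the proliferation marker Ki-67 that coats mitotic chromosomes, lies at chr7:135689784-135716361. It read 10.32, 10.40 and 10.23 in siPRMT7 libraries with IFN-γ and 13.08, 13.05 and 12.98 in those without it, against 13.22, 13.11 and 13.17 in siLuc libraries with IFN-γ and 14.09, 14.32 and 14.32 in those without it. Either treatment alone gave close values, and the combination was lower than both in every library. The response was -2.72 in siPRMT7 cells and -1.08 in siLuc cells (interaction -1.64 ± 0.08; limma adjusted p = 4.49e-13). Clspn, the checkpoint adaptor claspin, read 7.84, 7.86 and 7.63 in siPRMT7 libraries with IFN-γ and 9.88, 9.84 and 9.83 in those without it, against 10.02, 10.11 and 10.12 in siLuc libraries with IFN-γ and 10.38, 10.50 and 10.60 in those without it. No groups overlapped, and the treated siPRMT7 libraries were the lowest (interaction -1.67 ± 0.09; limma adjusted p = 4.68e-12).

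The other 3 named genes had the same pattern. Fancd2, of the Fanconi pathway of crosslink repair, had responses of -2.05 in siPRMT7 cells and -0.44 in siLuc cells. Nuf2, a kinetochore subunit, had responses of -2.21 in siPRMT7 cells and -0.66 in siLuc cells. E2f8, a repressor of E2F target genes, had responses of -2.42 in siPRMT7 cells and -0.88 in siLuc cells, and 11.2% of its exon bases are shared with Gm2788 on the opposite strand.

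All 30 mitosis genes were called lower and all 30 were amplified lowered, beside 16.5% of all genes called lower. Their median interaction was -1.19, with a range of -1.64 to -0.55. The median response was -1.87 in siPRMT7 cells and -0.65 in siLuc cells, and the median knockdown difference was -2.74 with IFN-γ and -1.54 without it. Birc5, which encodes survivin of the chromosomal passenger complex, read 7.54, 7.64 and 7.49 in siPRMT7 libraries with IFN-γ and 9.81, 9.77 and 9.79 in those without it, against 10.82, 10.84 and 10.73 in siLuc libraries with IFN-γ and 11.67, 11.65 and 11.63 in those without it. Its groups followed each other in that order with no overlap (interaction -1.38 ± 0.07; limma adjusted p = 6.58e-13).

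Of 32 DNA replication genes, 28 were called lower and 1 higher (90.6%, against 30.6% of all genes), and 23 were amplified lowered. The median interaction was -0.82, with a median response of -1.55 in siPRMT7 cells and -0.71 in siLuc cells. Rrm2, the regulated subunit of ribonucleotide reductase, read 9.21, 9.38 and 9.23 in siPRMT7 libraries with IFN-γ and 11.50, 11.50 and 11.47 in those without it, against 11.84, 11.91 and 11.82 in siLuc libraries with IFN-γ and 12.66, 12.71 and 12.70 in those without it. Again no groups overlapped (interaction -1.38 ± 0.06; limma adjusted p = 1.58e-13). Mcm5, a subunit of the replicative helicase, had responses of -2.0 in siPRMT7 cells and -0.70 in siLuc cells (interaction -1.31 ± 0.06; limma adjusted p = 5.68e-13).

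Ccnd1 and Dusp4, also amplified lowered, were chosen after their values were seen. Ccnd1, which encodes cyclin D1 of the G1 phase, read 11.72, 11.84 and 11.80 in siPRMT7 libraries with IFN-γ and 13.76, 13.77 and 13.80 in those without it, against 12.86, 12.84 and 12.90 in siLuc libraries with IFN-γ and 13.30, 13.38 and 13.31 in those without it. The untreated siPRMT7 libraries were the highest and the treated ones the lowest (interaction -1.52 ± 0.05; limma adjusted p = 5.23e-15). Dusp4, a phosphatase of MAP kinases, had responses of -1.48 in siPRMT7 cells and -0.33 in siLuc cells (interaction -1.16 ± 0.08; limma adjusted p = 2.29e-10). Its knockdown difference was -1.39 with IFN-γ and -0.23 without it.

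Damped lowered genes were a small class of 37, with a median response of -0.59 in siPRMT7 cells and -1.33 in siLuc cells. The feature named Zfp469, at chr8:122269569-122272650, is annotated as a lincRNA (a long intergenic noncoding RNA) in the authors' deposited table. It read 7.15, 7.17 and 7.04 in siPRMT7 libraries with IFN-γ and 7.03, 7.17 and 7.18 in those without it, against 5.96, 5.79 and 6.03 in siLuc libraries with IFN-γ and 7.91, 7.88 and 7.76 in those without it. The siPRMT7 groups overlapped and the siLuc groups did not (interaction 1.91 ± 0.12; limma adjusted p = 1.08e-10). Abca12, a lipid transporter of the skin barrier, read 11.16, 11.04 and 11.41 in siPRMT7 libraries with IFN-γ and 12.37, 12.41 and 12.41 in those without it, against 9.65, 9.73 and 9.65 in siLuc libraries with IFN-γ and 12.29, 12.39 and 12.56 in those without it. Its untreated groups overlapped, and IFN-γ separated them (interaction 1.55 ± 0.10; limma adjusted p = 7.35e-11). Tenm4, a teneurin, Sgk2, a kinase, and Ttn, the muscle protein titin, had interactions of 1.16, 1.03 and 1.01.

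Additive lowered genes had a median response of -1.12 in siPRMT7 cells and -1.06 in siLuc cells. Car6, a secreted carbonic anhydrase, read 10.58, 10.56 and 10.42 in siPRMT7 libraries with IFN-γ and 12.57, 12.61 and 12.56 in those without it, against 9.53, 9.49 and 9.25 in siLuc libraries with IFN-γ and 11.54, 11.47 and 11.48 in those without it. The knockdown difference was the same with and without IFN-γ within error, 1.10 and 1.08, and the interaction was 0.01 ± 0.08 (limma adjusted p = 0.915). Kit, the stem cell factor receptor of melanocytes, had responses of -2.25 in siPRMT7 cells and -1.83 in siLuc cells. Its interaction of -0.41 ± 0.13 was called (limma adjusted p = 0.0168) but stayed under the margin of 0.5, and the authors' deposited table gives -0.98. Fam81a had an interaction of 0.04 ± 0.13 (limma adjusted p = 0.86).

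Reversed responses were found in 6 genes, 3 of which went down in siPRMT7 cells and up in siLuc cells. Ccdc80, a secreted protein of the extracellular matrix, lies at chr16:45093612-45128077. It read 8.39, 8.44 and 8.48 in siPRMT7 libraries with IFN-γ and 9.06, 9.07 and 9.12 in those without it, against 9.31, 9.40 and 9.31 in siLuc libraries with IFN-γ and 8.02, 8.11 and 7.94 in those without it. Untreated siLuc libraries were the lowest and treated siLuc libraries the highest, with both siPRMT7 groups between them (interaction -1.97 ± 0.09; limma adjusted p = 1.73e-13). B3galt5, a glycosyltransferase, had responses of -1.16 in siPRMT7 cells and 0.47 in siLuc cells (interaction -1.63 ± 0.12; limma adjusted p = 8.43e-10). Mtfr2, a regulator of mitochondrial fission, had responses of -1.14 in siPRMT7 cells and 0.32 in siLuc cells (interaction -1.46 ± 0.11; limma adjusted p = 1.89e-09).

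In the other direction, Trim47, a ubiquitin ligase, read 7.24, 7.11 and 7.04 in siPRMT7 libraries with IFN-γ and 5.95, 6.10 and 6.03 in those without it, against 6.01, 6.05 and 5.88 in siLuc libraries with IFN-γ and 6.96, 6.84 and 6.56 in those without it. Untreated siPRMT7 and treated siLuc libraries overlapped at low values (interaction 1.91 ± 0.15; limma adjusted p = 1.36e-09). Clvs1, a clathrin-coat-associated lipid transfer protein, had responses of 1.16 in siPRMT7 cells and -0.45 in siLuc cells (interaction 1.61 ± 0.06; limma adjusted p = 2.01e-14). It shares 30.4% of its exon bases with Asph on the opposite strand, which itself had responses of 0.88 in siPRMT7 cells and -0.35 in siLuc cells, and reads of the 2 genes cannot be told apart without strand. All 6 genes were also reversed in the authors' deposited table.

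Of 23 cholesterol biosynthesis genes, 18 were called lower and none higher, beside 16.5% of all genes called lower, with a median interaction of -0.36 and a range of -1.23 to -0.11. The median response was -0.26 in siPRMT7 cells and 0.05 in siLuc cells, and 22 of the 23 had no response of 1 or more in either cell state. The exception was Hsd17b7, a sterol reductase that was damped induced; it read 9.31, 9.52 and 9.38 in siPRMT7 libraries with IFN-γ and 9.49, 9.40 and 9.54 in those without it, against 9.68, 9.71 and 9.56 in siLuc libraries with IFN-γ and 8.37, 8.54 and 8.59 in those without it. The siPRMT7 groups overlapped, and the untreated siLuc libraries were the lowest (interaction -1.23 ± 0.10; limma adjusted p = 1.72e-09). Ebp, a sterol isomerase, had responses of 0.07 in siPRMT7 cells and 0.81 in siLuc cells (interaction -0.74 ± 0.06; limma adjusted p = 5.68e-09).

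Integrated stress response and p53 pathway genes were called in both directions. Of 21 integrated stress response genes, 8 were called higher and 5 lower (61.9%, against 30.6% of all genes), with a median of 0.07. Atf3, a stress-induced transcription factor, was damped, with responses of 1.47 in siPRMT7 cells and 2.26 in siLuc cells (interaction -0.79 ± 0.07; limma adjusted p = 2.05e-08), whereas Slc7a11, the cystine transporter, had responses of 0.98 in siPRMT7 cells and 0.07 in siLuc cells (interaction 0.91 ± 0.10; limma adjusted p = 5.88e-07). Among 21 p53 pathway genes, 8 were called higher and 4 lower (57.1%), within a range of -0.53 to 0.49. Perp and Zmat3, both p53 targets, had 0.49 and 0.34. Of 18 endoplasmic reticulum chaperones, 4 were called higher and 1 lower, Herpud1 at 0.59 and Dnajc3 at 0.30 among them. Of 13 heat shock genes, 4 were called higher and none lower, with Hspb1 at 0.85 and Dnajb1 at 0.33. The shares called, 27.8% of the chaperones and 30.8% of the heat shock genes, lie near the 30.6% of all genes.

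Lineage genes of the melanoma cells were divided as well. Of 18 pigmentation genes, 4 were called higher and 7 lower (61.1%, against 30.6% of all genes), with a median of 0.00. Mc1r, the melanocortin receptor, had responses of -0.43 in siPRMT7 cells and 0.30 in siLuc cells (interaction -0.74 ± 0.06; limma adjusted p = 1.19e-09). Slc24a5, a melanosome exchanger, had an interaction of 0.59 ± 0.05 (limma adjusted p = 2.02e-08), but 39.5% of its exon bases are shared with Myef2 on the opposite strand, whose interaction was 0.56. For Mc1r the overlap with Gm38092, whose interaction was -0.82, was 17.9%. Of 12 dedifferentiation and mesenchymal genes, 5 were called higher and 4 lower (75%). Jun, an AP-1 subunit, had an interaction of -0.90 and Ccn2, a YAP target, one of 0.93. Ccn2 shares 23.2% of its exon bases with Gm15270 on the opposite strand, whose interaction was 0.59 (limma adjusted p = 0.00336). Jun shares 7.28% with Junos, whose interaction was -0.63 (limma adjusted p = 0.000357).

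Housekeeping lists moved little. Calls were 2 higher and 1 lower of 30 ribosomal protein genes and 1 higher of 20 genes of Sm proteins and snRNP assembly (Snrnp70 at 0.20). They were 2 higher of 9 arginine methyltransferases (Prmt2 at 0.19, Prmt5 at 0.16) and 2 higher of 23 glycolysis and hypoxia genes (Slc2a1 at 0.65, Pfkp at 0.31). Of 20 lysosome genes, 5 were called higher and 1 lower (Neu1 at 0.38, Scarb2 at -0.41). These shares all lie under the 30.6% of all genes called in the interaction, that of the lysosome being the nearest at 30%.

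Markers of other cell types were also read in the interaction. Both measured leukocyte markers were called higher, Cd68 at 0.64 ± 0.17 and Csf1r at 0.27 ± 0.10 (limma adjusted p = 0.00764 and 0.044). Csf1r shares 15.1% of its exon bases with Hmgxb3 on the opposite strand, which had a mean rlog value of 11.08, against 8.56 for Csf1r, and an interaction of 0.19 (limma adjusted p = 0.0252). The summed level of the 8 leukocyte markers, as 2 to the power of the rlog value, was 560 to 586 in siPRMT7 libraries with IFN-γ and 444 to 522 in those without it, against 344 to 403 in siLuc libraries with IFN-γ and 405 to 418 in those without it, and Csf1r made up most of it in every library. For the 7 melanocytic markers these sums were 281000 to 302000 and 382000 to 390000 in siPRMT7 libraries with and without IFN-γ, against 403000 to 427000 and 482000 to 503000 in siLuc libraries with and without it. Of 7 markers of fibroblasts, endothelium and keratinocytes, 3 were measured. Col1a2, a fibrillar collagen chain, was damped lowered at 0.99 ± 0.12 and Pdgfra had 0.72 ± 0.16 (limma adjusted p = 2.35e-06 and 0.00189). Col1a1, the remaining measured marker, was not called, at -0.10. Its means were 4.48 and 4.66 in siPRMT7 cells with and without IFN-γ, against 5.08 and 5.16 in siLuc cells. The sums of the 7 markers were 650 to 778 and 980 to 1110 in siPRMT7 libraries with and without IFN-γ, against 272 to 307 and 670 to 826 in siLuc libraries with and without it. The part of such markers in the gene lists above was not tested.

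**Figure D5:**
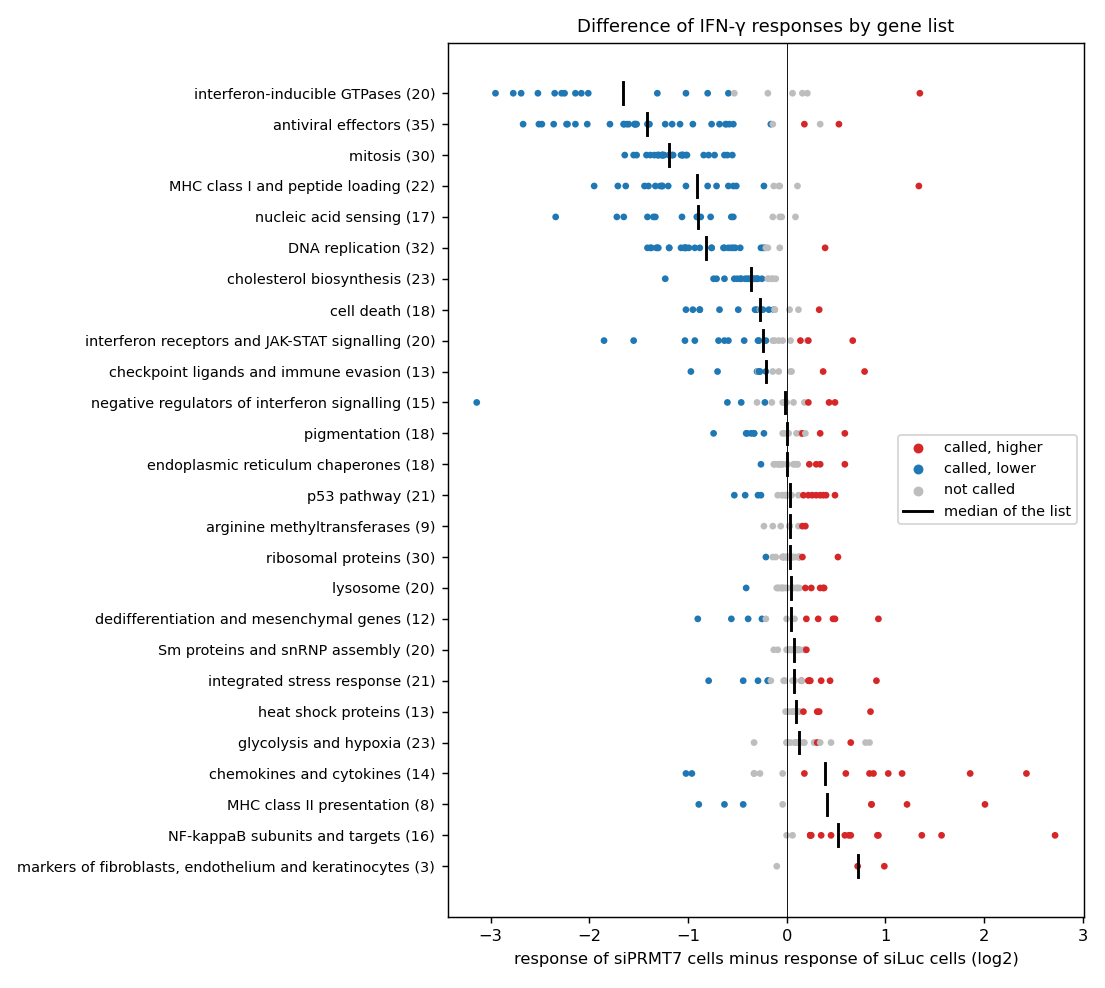
Interaction (horizontal, log2, response of siPRMT7 cells minus response of siLuc cells) of each measured member of 26 gene lists (vertical, number of measured members in brackets); each point is a gene, coloured by its call at an adjusted p of 0.05, and the black tick is the median of the list. Interferon-inducible GTPases, antiviral effectors, mitosis, MHC class I, nucleic acid sensing and DNA replication lie to the left at medians of -1.66 to -0.82, and NF-κB genes lie to the right at 0.52.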

How the data were processed

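Poly(A) RNA of B16.F10 cells was sequenced as single reads from strand-marking libraries, per the labels' protocols. The submitters' processing notes name DESeq2 1.26.0, HOMER 4.11.1, STAR 2.7.1a and Trimmomatic 0.39 with the build mm10 (GRCm38); strand use in counting is not given in the sources read. The deposited per-library values are rlog values on a log2 scale, per the file headers, scaled for library size and drawn toward the gene's mean where reads are few. The same deposited table holds the authors' own fold changes (log2) and p-values; the fold changes alone were used, as an alternative. All sample columns were mapped by name.

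A gene entered the fit at a mean of 4 or more on the rlog scale across the 12 libraries (14424 lines), and 17 symbols found on several lines were reduced to their highest line, giving 14407 genes. limma 3.58.1 in R 4.3.3 was fitted to group means with a mean-variance trend (8 residual and 12.4 prior degrees of freedom, median residual SD 0.0751), 2-sided, with Benjamini-Hochberg adjustment over all genes tested and calls at an adjusted p under 0.05. The SE is from that shared variance. Since counts are not used here, counting error is not modelled, and low genes have too small a spread. The fit was tested on simulated data.

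Members, gene lists, thresholds and the rule for named genes were chosen with earlier results of these data known. Named were Prmt7, the 5 genes with the largest called interaction in each of the damped, amplified and reversed classes (mean rlog value of at least 6, predicted genes left out), the 3 largest responses of each additive class, and from each list the called members with the smallest p, 2 at most. Ifngr2, Gvin1, H2-Q4, Cxcl9, Cxcl10, Cxcl11, Nfkbia, Tnfaip3, Relb, Nfkb2, Rel, Birc3 and Tnfaip2 were added after their values were seen. A few genes that the rule names are not reported here. Exon overlaps are from GENCODE M21 and promoter windows from RefSeq, both on GRCm38. Alternatives covered the filter on the mean, scaling, trend, null, class thresholds, scale, the authors' fold changes, the replicate block and each library left out.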

Additional observations from a re-analysis of the deposited data

Results flagged for a closer look

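A difference between siPRMT7 and siLuc cells in their response to IFN-γ, tested as the interaction term, was past the threshold in 4415 genes and in the named genes below. Each value is the log2 response of siPRMT7 cells minus that of siLuc cells, and no cause is weighed.

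Damped induced genes of interferon defence and signalling were Usp18 (-3.14), Gbp2 (-2.95), Gbp3 (-2.77), Trim12c (-2.71), Irgm2 (-2.69), Irgm1 (-2.35), Ifi203 (-2.34), Isg15 (-2.22), Parp14 (-2.02), H2-T23 (-1.95), Ddx58 (-1.72), Tapbp (-1.63) and Irf9 (-0.93). Others damped on induction were Hsd17b7 (-1.23), Lgals9 (-0.97), Mlkl (-0.95), Jun (-0.90), Atf3 (-0.79) and Lgals3 (-0.70). Damped lowered genes were Zfp469 (1.91), Abca12 (1.55), Tenm4 (1.16), Sgk2 (1.03), Ttn (1.01) and Col1a2 (0.99).

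Amplified induced genes were Clic5 (4.0), Ubd (2.72), Cxcl2 (2.43), H2-Aa (2.01), Klf4 (1.92), Cxcl1 (1.86), Nfkbie (1.37), H2-Ab1 (1.22) and Hspb1 (0.85). Amplified lowered genes were Clspn (-1.67), Mki67 (-1.64), Fancd2 (-1.61), Nuf2 (-1.55), E2f8 (-1.55), Rrm2 (-1.38), Birc5 (-1.38) and Mcm5 (-1.31). Reversed genes were Ccdc80 (-1.97), B3galt5 (-1.63), Mtfr2 (-1.46), Trim47 (1.91) and Clvs1 (1.61).

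Additive lowered genes with a called interaction were Perp (0.49), Zmat3 (0.34) and Kit (-0.41). Called genes whose responses stayed under 1 in both cell states were, on the higher side, Ccn2 (0.93), Slc7a11 (0.91), Pdgfra (0.72), Slc2a1 (0.65), Cd68 (0.64), Herpud1 (0.59), Slc24a5 (0.59), Pias2 (0.43), Neu1 (0.38), Dnajb1 (0.33), Pfkp (0.31), Dnajc3 (0.30), Csf1r (0.27), Snrnp70 (0.20), Prmt2 (0.19) and Prmt5 (0.16). On the lower side they were Ebp (-0.74), Mc1r (-0.74) and Scarb2 (-0.41).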

How the results depend on the processing

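The interaction count of 4415 stayed within 1.5 times under a mean rlog value of at least 6 (4146), no filter (3812), no trend (3992), median centring (4845) and quantile normalization (4648). Against a null of 0.5 it was 497 (85 higher and 412 lower). Leaving out each library in turn gave 3825 to 4580. Same-direction calls shared with the count above numbered 4027 under median centring and 3724 under quantile normalization. To check for pairing, deviations from the group means were correlated over genes between libraries of different groups. These deviations correlated at -0.124 to 0.224 over 18 same-numbered pairs (median 0.0629). Over 36 pairs of different number they correlated at -0.153 to 0.155 (median -0.021). Of 12 libraries, 10 correlated best with their own number. Since not every same-numbered pair was over 0.1, the numbers were not taken to pair the libraries in the main fit. With the replicate block 4573 genes were called (2119 higher and 2454 lower), and no named gene changed its call.

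Class sizes follow the thresholds. With a response of at least 0.5 there were 103 damped lowered, 152 amplified induced, 38 reversed, 1034 additive induced and 1085 additive lowered genes. A response of at least 2 gave 186 damped induced, 1 damped lowered, 52 amplified induced, 34 amplified lowered, 0 reversed, 80 additive induced and 2 additive lowered. A margin of 0.25 gave 68 damped lowered, 141 additive induced and 63 additive lowered, and a margin of 1 gave 157 damped induced, 6 damped lowered, 45 amplified induced, 110 amplified lowered, 532 additive induced and 332 additive lowered. A mean rlog value of at least 6 left 48 amplified induced genes, and quantile normalization gave 57 damped lowered. Differences on a linear scale, where the knockdown and IFN-γ add rather than multiply, gave 161 damped lowered, 183 amplified induced and 94 amplified lowered; of the 263 amplified lowered genes 68 remained amplified, 126 became additive and 69 damped, and of the 357 damped induced genes 198 remained damped. The authors' deposited fold changes gave 589 damped induced, 74 damped lowered, 395 amplified lowered and 30 reversed; in the authors' deposited table the direction turned for H2-Aa (-0.99) and H2-Ab1 (-1.71), and for Gbp9 (-3.30), Gbp10 (-1.96) and Fam81a (-0.61), whose rlog interactions did not pass the test; the other 70 named genes kept theirs. The cause of these changes was not tested. Without each library in turn, 92 to 100 genes were amplified induced, 347 to 366 damped induced and 255 to 269 amplified lowered. Against the null of 0.5, 54 of 75 named genes kept their side of the threshold. Depth limits the low end: rlog values near 4 to 5 rest on few reads.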
